A study of Mus musculus with 30 samples.

Results

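The endoplasmic reticulum (ER) folding and stress response was followed in the dorsal pancreas of mouse embryos as a set of 52 genes named for their functions. A gene was taken into the set through the probe sets that the platform annotation assigns to it alone, and it was represented by the probe set with the highest mean over the 10 arrays of its chip. On the 3 chips 51 of the 52 genes had such a probe set, among 15964 genes measured, and Sec61g was not analysed here. Chip A held 42 of them, chip B 7 and chip C 2, with 112 probe sets in all.

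RNA came from time-mated NMRI mice at 5 daily stages, embryonic day 12.5 (e12.5), e13.5, e14.5, e15.5 and e16.5, with no genetic change or treatment named in the labels. Whole dorsal buds, without the ventral bud, were pooled by litter, and the number of litters per stage is not stated. From each pool came 2 labelling reactions, and every reaction was read on the Affymetrix chips A, B and C of the second MG-U74 set, giving 30 arrays. The 2 arrays of 1 stage and chip thus show the spread of labelling and hybridisation only, and stage and pool cannot be told apart. The number of pools, 1 per stage, limits the precision.

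Secreted and membrane proteins enter the ER through the Sec61 channel, lose their signal peptide, receive N-glycans and fold with the help of chaperones, disulfide isomerases and prolyl isomerases. Chains that fail to fold are sent back to the cytosol for degradation. When unfolded chains accumulate, the sensors Ern1 (IRE1), Eif2ak3 (PERK) and Atf6 start the unfolded protein response, which acts through the transcription factors Xbp1, Atf4 and the cleaved form of Atf6 and raises the genes of folding and degradation. Acinar cells of the pancreas make digestive enzymes in very large amounts and are known for an extensive rough ER.

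Letters tied to that response stand in several of the promoters. RefSeq promoter windows (build GRCm38.p6, 250 bases before to 50 after the annotated start) were given for 43 of the 51 genes. The ER stress element, known as a site of Atf6 and Xbp1, was searched on both strands as CCAAT, 9 free bases and CCACG, and it occurred in 8 of the 43 genes. Among all 32851 promoter windows 0.119% held it, and among all 27025 genes with a window 37 did. Each element is shown because these 8 genes split evenly between those that rose over development and those that did not pass; they are read along the strand that carries CCAAT first, and capitals mark the fixed letters. The first 4 lines belong to genes that rose and the other lines to genes that did not pass.
Ero1b: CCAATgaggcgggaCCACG
Dnajc3: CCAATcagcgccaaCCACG
Creld2: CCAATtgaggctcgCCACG
Pdia6: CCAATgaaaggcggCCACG
Hsp90b1, nearer the start: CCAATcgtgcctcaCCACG
Hsp90b1, farther from the start: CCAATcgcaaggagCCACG
Hspa5: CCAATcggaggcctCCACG
Calr: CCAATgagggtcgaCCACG
Canx: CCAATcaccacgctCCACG

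A second ER stress element, searched as ATTGG, 1 free base and CCACG, occurred in 2 of the 43 genes and in 0.0365% of all windows. Both of these genes rose over development, as did 64.7% of the 51. Of the 9 genes on the chips that hold this element, 4 rose and 1 fell, beside 11.9% and 17.0% of all genes measured. The 9 include these 2 genes and 1 further ER gene, which rose. The elements are shown in the same way as those above.
Herpud1: ATTGGgCCACG
Dnajb11: ATTGGcCCACG

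The whole windows of Ero1b, Herpud1 and Hspa5 are shown because Ero1b had the largest change among the genes with the first element, Herpud1 carried the second element, and Hspa5 is the chaperone whose promoter is the classical reporter of ER stress. They run along the gene's own strand, with the matched letters in capitals; in Ero1b the element lies on the opposite strand, and Herpud1 also holds a C/EBP-ATF element (TGATG, 1 free base, AA, either strand).
Ero1b, GRCm38.p6 chr13:12565633-12565932, plus strand: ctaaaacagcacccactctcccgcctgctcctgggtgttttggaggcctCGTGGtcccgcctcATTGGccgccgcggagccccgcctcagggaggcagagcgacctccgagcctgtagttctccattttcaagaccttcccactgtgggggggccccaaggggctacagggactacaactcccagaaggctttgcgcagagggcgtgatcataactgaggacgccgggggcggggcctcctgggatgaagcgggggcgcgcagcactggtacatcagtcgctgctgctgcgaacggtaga
Herpud1, GRCm38.p6 chr8:94386179-94386478, plus strand: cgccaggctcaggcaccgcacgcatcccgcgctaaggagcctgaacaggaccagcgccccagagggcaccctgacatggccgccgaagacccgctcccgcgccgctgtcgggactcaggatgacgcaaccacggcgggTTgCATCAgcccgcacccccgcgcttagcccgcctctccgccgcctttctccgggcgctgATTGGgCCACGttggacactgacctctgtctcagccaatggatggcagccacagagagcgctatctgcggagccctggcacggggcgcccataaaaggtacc
Hspa5, GRCm38.p6 chr2:34771840-34772139, plus strand: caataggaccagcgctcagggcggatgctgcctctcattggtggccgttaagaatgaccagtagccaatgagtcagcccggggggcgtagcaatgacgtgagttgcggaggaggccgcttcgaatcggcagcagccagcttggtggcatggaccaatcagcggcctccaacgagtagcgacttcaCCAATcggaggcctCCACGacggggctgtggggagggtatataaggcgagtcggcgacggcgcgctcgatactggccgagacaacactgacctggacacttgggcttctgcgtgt

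Of the other letters searched on both strands, the UPR element TGACGTGG was found in a window of Txndc5 alone among the 43 genes, and in 0.676% of all windows. The C/EBP-ATF element was found in Herpud1 and Txndc5, and in 3.97% of all windows. A match is a description of letters in these windows. The centre of the ER stress element lay 192 bases before the start in Ero1b, 117 in Creld2, 96 in Dnajc3 and 89 in Pdia6, against 203 and 98 in Hsp90b1, 153 in Calr, 136 in Canx and 56 in Hspa5. The positions of the genes that rose overlap those of the genes that did not pass.

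**Figure D1:**
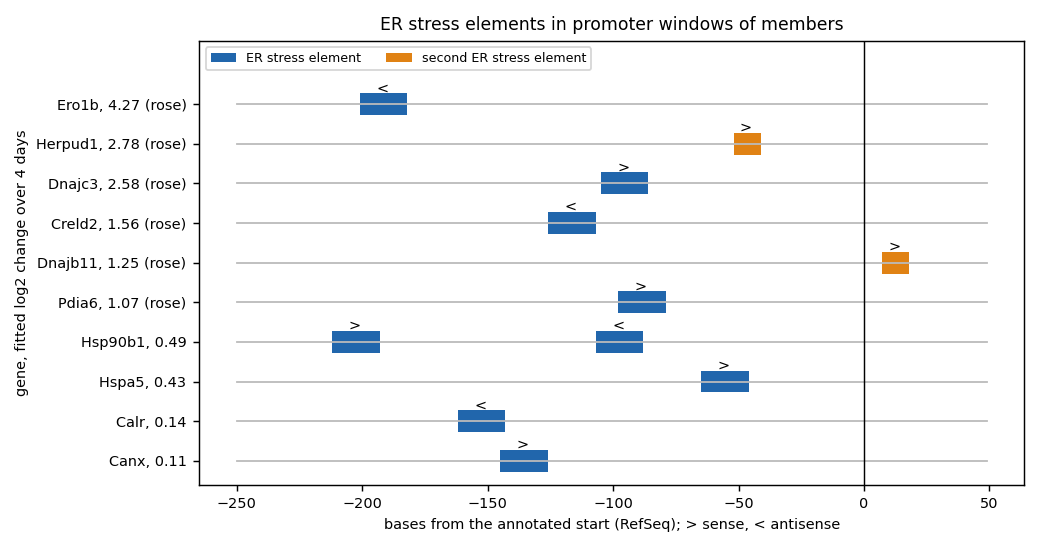
Positions of ER stress elements in the promoter windows of 10 genes; the x axis gives bases from the annotated start, each row is a gene with its fitted log2 change over 4 days, blue boxes are the first element, orange boxes the second, and the marks above them give the strand. The first element lies between 203 and 56 bases before the start by its centre, in genes with fitted changes between 0.11 and 4.27.

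The main comparison asked which of these genes changed steadily with stage. Of the 51 genes, 33 rose, none fell and 18 did not pass (limma line over embryonic day on 5 pool means, adjusted p under 0.05 over all probe sets of the 3 chips). The rise reached at least 2-fold in 25 of them, beside 2.25% of all genes. The median fitted change of the 51 genes over the 4 days was 1.00 on the log2 scale, with a range of -0.21 to 5.83, and 47 were positive. Among all 15964 genes 11.9% rose and 17.0% fell, with a median of 0.02. Without the e16.5 pool, 26 of the 51 genes rose, and 754 of all genes did, against 1902 with every pool. The median SD between the reactions of a stage was 0.0449, and the largest was 0.288.

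**Figure D2:**
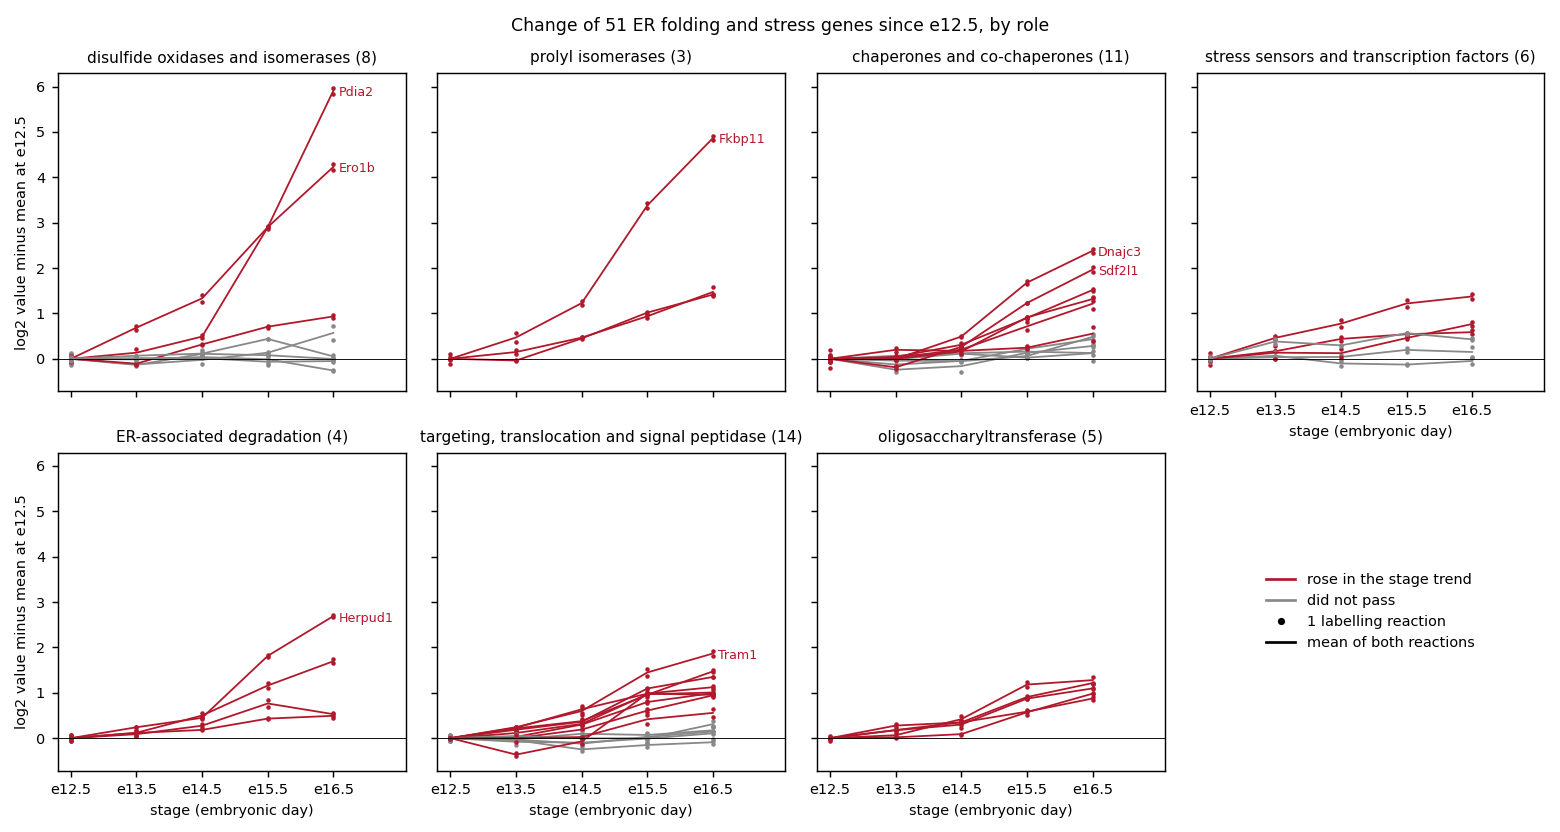
Change since e12.5 of the 51 genes, by role; the x axis is stage, the y axis the log2 value minus the gene's e12.5 mean, points are single labelling reactions and lines join pool means. Genes that rose are red and genes that did not pass are grey. Pdia2, Fkbp11 and Ero1b stand above the rest, and most red lines steepen after e14.5.

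The acinar markers rose over the same 4 days. Of 18 acinar genes measured 16 rose and none fell, with a median change of 5.28, and their summed level on chip A (12 genes, log2 of the sum) was 16.04 to 16.07 at e16.5 and 10.63 to 10.66 at e12.5. Of 14 islet markers 6 rose and 2 fell, with a median of 0.43, while their sum (12 genes) was 12.84 to 12.91 at e16.5 and 9.91 to 9.92 at e12.5. Of 8 duct markers 6 rose and 1 fell, with a median of 1.34, and their sum (7 genes) was 12.21 to 12.24 at e16.5 and 10.32 to 10.37 at e12.5. Of 12 mesenchyme markers 2 rose and 5 fell, and their sum (11 genes) was 12.18 to 12.22 at e16.5, against 12.37 to 12.48 at e12.5. Of 9 red cell markers 2 rose and 3 fell, and their sum (8 genes) was 12.98 to 13.04 at e16.5, against 14.19 at e12.5 on both arrays. A sum follows the brightest genes of its list. The labelled tissue carried its markers from the start: the carboxypeptidase gene Cpa1 averaged 10.75 and the acinar and early pancreatic factor Ptf1a 7.22 at e12.5, where the median of their chip was 4.00. The RNA came from whole buds and not from sorted cells, so fewer cells of a type and less RNA per cell cannot be told apart. The part of these cell types in the changes below was not tested.

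Among the disulfide oxidases and isomerases, which form and rearrange disulfide bonds, 3 of 8 rose, with a group median of 0.37. Ero1b (chromosome 13, 12565818 to 12609533), the ERO1 oxidase that is abundant in pancreas and recharges the isomerases with oxidising power, gave 4.80 and 4.997 at e12.5, 5.54 and 5.63 at e13.5, 6.30 and 6.16 at e14.5, 7.81 and 7.80 at e15.5 and 9.20 and 9.06 at e16.5. Its values climbed at every stage, with no overlap between stages, and its fitted change was 4.27 ± 0.33 (SE, n = 5 pools; limma adjusted p = 0.000683). The e12.5 level lay below the chip median and is not shown to be above background, so no fold is given and the change can be understated. Its partner Ero1l (now Ero1a), the more widely expressed oxidase, read 7.82 and 7.79 at e12.5, 7.81 and 7.78 at e13.5, 7.87 and 7.83 at e14.5, 7.88 and 7.72 at e15.5 and 7.57 and 7.53 at e16.5. It was nearly level until e15.5 and lowest at e16.5, with a fitted change of -0.21 ± 0.12 (SE; limma adjusted p = 0.25); of 2 further bright probe sets of Ero1l, one rose by 0.41 ± 0.10 (limma adjusted p = 0.0231) and the other changed by 0.02 ± 0.09 (adjusted p = 0.878).

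Pdia2 (chromosome 17, 26195999 to 26199134), the disulfide isomerase of pancreas, had 5.01 and 4.96 at e12.5, 5.05 and 5.20 at e13.5, 5.50 and 5.45 at e14.5, 7.92 and 7.86 at e15.5 and 10.96 and 10.83 at e16.5. It stayed near its first level until e14.5 and then climbed steeply, and its fitted change of 5.83 ± 0.94 (SE; limma adjusted p = 0.00444) was the highest value fitted among the 51. Without the e16.5 pool the change was 3.62. Its e12.5 level was below the chip median too, so its change can also be understated and its order with Ero1b is not settled. The founding isomerase P4hb, which also serves as a subunit of collagen prolyl 4-hydroxylase, read 9.49 and 9.58 at e12.5, 9.51 and 9.59 at e13.5, 9.55 and 9.55 at e14.5, 9.54 and 9.40 at e15.5 and 9.46 and 9.51 at e16.5, with all 10 arrays inside a narrow band and a fitted change of -0.07 ± 0.09 (SE; limma adjusted p = 0.575). A second probe set of P4hb, below the chip median at e12.5 and e16.5, changed by 0.42 ± 0.17 without passing (limma adjusted p = 0.121). P4hb and Pdia2 lie on different chips, so their levels were not compared. Pdia6, another isomerase of the ER lumen, gave 9.11 and 8.96 at e12.5, 8.91 and 8.95 at e13.5, 9.36 and 9.34 at e14.5, 9.72 and 9.76 at e15.5 and 10.001 and 9.94 at e16.5. Its e13.5 arrays were the lowest, both later stages stood above e14.5, and it rose by 1.07 ± 0.16 (SE; limma adjusted p = 0.00615). The calnexin-associated isomerase Pdia3 changed by 0.56 ± 0.18 (limma adjusted p = 0.0637), Txndc5 by 0.19 ± 0.18 and Pdia4 by 0.08 ± 0.12, all without passing, and leaving out the e12.5 pool took Pdia3 past the threshold (0.90, adjusted p = 0.0245), while leaving out the e16.5 pool gave 0.20 (adjusted p = 0.45).

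Affymetrix's suffixes mark the probe sets of Ero1b and Pdia2 as shared among similar sequences, which lets related genes add to their signal. Neither gene had a second bright probe set. The other 2 of Ero1b changed by 0.26 ± 0.13 and -0.07 ± 0.12 without passing, and the other of Pdia2 rose by 0.38 ± 0.09 (limma adjusted p = 0.0209). The chosen probe set of Rpn2 and the chip B probe sets of Fkbp11 and Ssr4 given below carry the same suffix. Ero1l, P4hb and Pdia6 also rest on probe sets with a suffix other than the plain one.

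**Figure D3:**
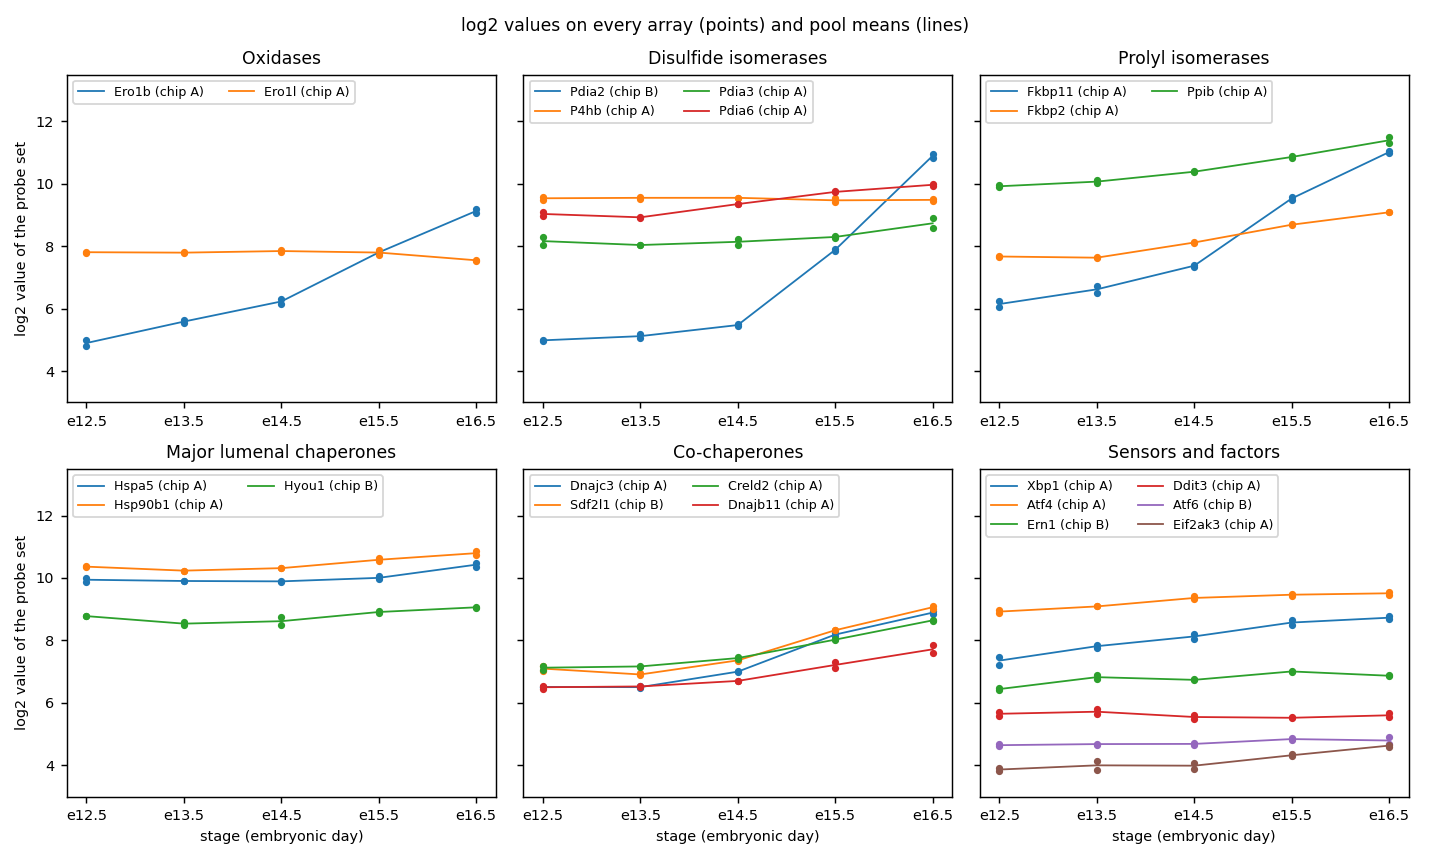
log2 values of selected genes on every array (points) and pool means (lines) against stage, in 6 panels by function; levels of different genes depend on their probes and are not compared. Ero1b, Pdia2 and Fkbp11 climb steeply while Ero1l, P4hb and Ddit3 stay nearly level.

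All 3 prolyl isomerases of the set, which speed the turning of proline bonds during folding, rose. Fkbp11 (chromosome 15, 98724368 to 98728198), an FK506-binding protein of secretory cells, gave 6.04 and 6.26 at e12.5, 6.72 and 6.52 at e13.5, 7.34 and 7.41 at e14.5, 9.59 and 9.47 at e15.5 and 10.97 and 11.06 at e16.5. Every stage stood clear of the stage before it, and the fitted change was 5.06 ± 0.52 (SE; limma adjusted p = 0.00168). On a second probe set, on chip B, Fkbp11 rose by 3.34 ± 0.39. Fkbp2, its smaller relative in the ER lumen, read 7.67 and 7.67 at e12.5, 7.65 and 7.61 at e13.5, 8.14 and 8.10 at e14.5, 8.71 and 8.67 at e15.5 and 9.09 and 9.08 at e16.5. It was level to e13.5 and higher at each stage after that, a rise of 1.55 ± 0.19 (SE; limma adjusted p = 0.0028). Ppib (cyclophilin B) had 9.88 and 9.96 at e12.5, 10.12 and 10.02 at e13.5, 10.41 and 10.37 at e14.5, 10.89 and 10.83 at e15.5 and 11.49 and 11.29 at e16.5 and rose by 1.49 ± 0.15 (SE; limma adjusted p = 0.00157). Its e16.5 arrays were the highest and its e12.5 arrays the lowest.

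Of 11 chaperones and co-chaperones 6 rose, with a group median of 0.49. Hspa5 (BiP, chromosome 2, 34772090 to 34776529), the Hsp70 chaperone of the ER, read 9.87 and 10.01 at e12.5, 9.92 and 9.89 at e13.5, 9.87 and 9.92 at e14.5, 10.05 and 9.96 at e15.5 and 10.49 and 10.36 at e16.5. It was flat until e15.5, its e16.5 arrays stood above all others, and its fitted change of 0.43 ± 0.17 (SE; limma adjusted p = 0.11) did not pass. Hsp90b1 (GRP94), the Hsp90 of the ER, changed by 0.49 ± 0.15 (limma adjusted p = 0.057) and Hyou1, a nucleotide exchange factor for Hspa5, by 0.37 ± 0.16 (adjusted p = 0.126). Both had their lowest mean at e13.5, and both passed without the e12.5 pool, with changes of 0.78 and 0.75 (adjusted p = 0.0194 and 0.0167). When the e16.5 pool was left out instead, the changes were 0.30 for Hsp90b1, 0.19 for Hyou1 and 0.07 for Hspa5 (adjusted p = 0.353, 0.626 and 0.77). The lectin chaperone genes Canx (0.11 ± 0.09) and Calr (0.14 ± 0.09) did not pass. The Calr probe set lay between 3.15 and 3.51 on all 10 arrays, below the chip median, and is not shown to be above background.

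Dnajc3 (p58IPK), a J-domain protein that serves Hspa5, gave 6.51 and 6.50 at e12.5, 6.48 and 6.53 at e13.5, 6.98 and 7.02 at e14.5, 8.15 and 8.22 at e15.5 and 8.94 and 8.84 at e16.5. It was level to e13.5 and then stepped up at each stage, a rise of 2.58 ± 0.34 (SE; limma adjusted p = 0.00378). Its probe set is of an incomplete design, and the mean of its probe sets on chip A rose by 1.67; 5 of its other 6 probe sets rose. Sdf2l1, which works with the J-domain proteins of the lumen, read 7.18 and 7.02 at e12.5, 6.88 and 6.94 at e13.5, 7.35 and 7.37 at e14.5, 8.33 and 8.32 at e15.5 and 9.11 and 9.01 at e16.5. The e13.5 arrays were its lowest and the e16.5 arrays its highest, and it rose by 2.14 ± 0.32 (SE; limma adjusted p = 0.00325). Creld2, a stress-inducible protein with isomerase-like activity, had 7.19 and 7.06 at e12.5, 7.19 and 7.15 at e13.5, 7.40 and 7.47 at e14.5, 8.04 and 8.01 at e15.5 and 8.63 and 8.65 at e16.5. Its gain came mostly at e15.5 and e16.5, and the fitted change was 1.56 ± 0.21 (SE; limma adjusted p = 0.00452).

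The other risers of this group were Manf, a small stress-induced protein that can be secreted (1.42 ± 0.23), and the J-domain partners of Hspa5, Dnajb11 (ERdj3, 1.25 ± 0.19) and Dnajb9 (ERdj4, 0.46 ± 0.12, limma adjusted p = 0.0344). Leaving out the e16.5 pool took Manf to 1.16 (adjusted p = 0.0698). Dnajb9 lay below the chip median at both ends, and its call was lost without any 1 of the e12.5, e13.5, e14.5 and e16.5 pools, with changes of 0.28 to 0.51. A second and also dim probe set of Dnajb9 rose by 1.14 ± 0.15 (limma adjusted p = 0.00351), and the mean of both rose by 0.80 (adjusted p = 0.00502).

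Of the 6 sensors and transcription factors 3 rose, and the largest change was that of Xbp1 (chromosome 11, 5520641 to 5525993), the factor that Ern1 activates by splicing its mRNA. Xbp1 gave 7.23 and 7.48 at e12.5, 7.77 and 7.86 at e13.5, 8.20 and 8.05 at e14.5, 8.64 and 8.51 at e15.5 and 8.77 and 8.68 at e16.5. It was the only riser of the 33 with its largest daily step between e12.5 and e13.5. That step was 0.46 ± 0.09 and the step to e15.5 was 0.44 ± 0.09 (SE of labelling), so their order is not settled. Xbp1 climbed at every stage, and its fitted change was 1.40 ± 0.11 (SE; limma adjusted p = 0.000844). Which splice form was present was not measured. Atf4, the factor downstream of Eif2ak3, read 8.96 and 8.88 at e12.5, 9.09 and 9.09 at e13.5, 9.41 and 9.31 at e14.5, 9.49 and 9.44 at e15.5 and 9.46 and 9.56 at e16.5. Most of its gain was in place by e14.5, and it rose by 0.62 ± 0.11 (SE; limma adjusted p = 0.00906), with 0.55 (adjusted p = 0.0651) without the e12.5 pool. Eif2ak3 had 3.82 and 3.91 at e12.5, 3.85 and 4.14 at e13.5, 4.08 and 3.90 at e14.5, 4.29 and 4.35 at e15.5 and 4.67 and 4.60 at e16.5, all below the chip median, and rose by 0.74 ± 0.14 (SE; limma adjusted p = 0.0114). That call was lost when the e16.5 pool was left out (0.54, adjusted p = 0.0821) and with the second reactions alone (0.63, adjusted p = 0.0546), and its other probe set did not pass.

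Ern1 read 6.41 and 6.47 at e12.5, 6.88 and 6.77 at e13.5, 6.75 and 6.72 at e14.5, 6.997 and 7.02 at e15.5 and 6.85 and 6.89 at e16.5. Its e12.5 arrays were the lowest, the later stages overlapped in part, and the fitted change of 0.41 ± 0.15 (SE; limma adjusted p = 0.0738) did not pass. A dimmer probe set of Ern1 rose by 0.36 ± 0.10 (limma adjusted p = 0.038). Atf6 gave 4.69 and 4.60 at e12.5, 4.66 and 4.70 at e13.5, 4.73 and 4.64 at e14.5, 4.80 and 4.88 at e15.5 and 4.67 and 4.92 at e16.5, with overlapping stages below the chip median and a change of 0.18 ± 0.10 (SE; limma adjusted p = 0.204). Its other 2 probe sets rose, by 0.69 ± 0.12 on chip A and 0.49 ± 0.10 on chip B (limma adjusted p = 0.0101 and 0.012), and the mean of its probe sets on chip B passed with 0.34. Ddit3 (CHOP), the factor linked to death under prolonged stress, read 5.71 and 5.59 at e12.5, 5.79 and 5.64 at e13.5, 5.49 and 5.61 at e14.5, 5.54 and 5.51 at e15.5 and 5.54 and 5.67 at e16.5. Its e16.5 and e12.5 arrays overlapped, all but 1 of its 10 arrays lay below the chip median, and the change was -0.12 ± 0.10 (SE; limma adjusted p = 0.449).

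All 4 genes of ER-associated degradation in the set rose, with a group median of 1.23. Herpud1 (chromosome 8, 94386429 to 94395371), a stress-inducible membrane protein of the degradation complex, gave 6.83 and 6.69 at e12.5, 6.997 and 7.002 at e13.5, 7.23 and 7.18 at e14.5, 8.55 and 8.59 at e15.5 and 9.47 and 9.43 at e16.5. The e14.5 mean was 0.45 above that of e12.5, the e15.5 and e16.5 arrays each stood far above the stage before, and it rose by 2.78 ± 0.38 (SE; limma adjusted p = 0.00423). Sel1l, the partner of the ubiquitin ligase HRD1, read 6.59 and 6.53 at e12.5, 6.65 and 6.71 at e13.5, 7.005 and 7.11 at e14.5, 7.67 and 7.77 at e15.5 and 8.29 and 8.22 at e16.5. It gained at every stage, 1.77 ± 0.18 (SE; limma adjusted p = 0.00168) in all, and by 2.37 ± 0.39 on a second probe set that was below the chip median at e12.5. Edem1, which helps single out misfolded glycoproteins, had 7.31 and 7.44 at e12.5, 7.41 and 7.51 at e13.5, 7.61 and 7.68 at e14.5, 8.05 and 8.22 at e15.5 and 7.87 and 7.94 at e16.5. On this probe set it was highest at e15.5 and rose by 0.69 ± 0.16 (SE; limma adjusted p = 0.0176). Without the e12.5 pool that was 0.72 (adjusted p = 0.0732), without the e13.5 pool 0.65 (adjusted p = 0.0572), and averaged over its probe sets on chip C 0.25; on chips A and B other probe sets rose by 3.03 ± 0.39 and 1.87 ± 0.24 and were highest at e16.5, the one on chip A starting below its chip's median, so that its change can be understated. Derl1, a derlin of the retrotranslocation complex, rose by 0.52 ± 0.09 and missed the threshold once the e12.5 pool was left out (0.55, adjusted p = 0.0514).

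In targeting, translocation and signal peptide cleavage 9 of 14 genes rose, with a group median of 1.03. Tram1, which helps chains into the membrane beside the Sec61 channel, gave 8.83 and 8.89 at e12.5, 9.09 and 9.11 at e13.5, 9.54 and 9.38 at e14.5, 10.38 and 10.23 at e15.5 and 10.79 and 10.67 at e16.5. Each stage stood above the one before, and the rise was 1.98 ± 0.18 (SE; limma adjusted p = 0.00119). Ssr2, a subunit of the translocon-associated TRAP complex, read 8.31 and 8.28 at e12.5, 8.47 and 8.55 at e13.5, 8.69 and 8.65 at e14.5, 9.20 and 9.29 at e15.5 and 9.78 and 9.74 at e16.5 and rose by 1.47 ± 0.17 (SE; limma adjusted p = 0.00243). Sec61b, a small subunit of the channel, had 9.91 and 9.92 at e12.5, 10.12 and 10.08 at e13.5, 10.22 and 10.34 at e14.5, 11.01 and 11.01 at e15.5 and 11.26 and 11.27 at e16.5. Its largest step came at e15.5, and it rose by 1.44 ± 0.17 (SE; limma adjusted p = 0.00276).

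Spcs3, a subunit of signal peptidase, gave 9.03 and 9.01 at e12.5, 8.69 and 8.63 at e13.5, 8.89 and 9.005 at e14.5, 9.98 and 10.03 at e15.5 and 10.17 and 10.12 at e16.5. On this probe set, on chip B, it was lowest at e13.5, still below its e12.5 level at e14.5, and stepped up at e15.5. A second probe set, on chip C, averaged 5.72, 5.88, 6.14, 6.48 and 6.23 over the 5 stages in order, with no dip at e13.5 and its highest mean at e15.5, and rose by 0.65 ± 0.15 (limma adjusted p = 0.0203). The fitted change on chip B was 1.44 ± 0.33 (SE; limma adjusted p = 0.0169), with 1.30 (adjusted p = 0.123) when the e16.5 pool was left out and 2.21 when the e12.5 pool was. The channel subunit Sec61a1 (1.15 ± 0.17), the receptor of the signal recognition particle Srpr (1.10 ± 0.14), Ssr1 (1.06 ± 0.14), Ssr3 (1.00 ± 0.15) and Spcs2 (0.61 ± 0.14) also rose. Of these, Spcs2 lost its call without any 1 of the e13.5, e15.5 and e16.5 pools (0.59, 0.58 and 0.51) and Ssr3 without the e16.5 pool (0.80, adjusted p = 0.0511). The 5 that did not pass were the signal recognition particle subunits Srp9 (0.14 ± 0.11) and Srp14 (-0.11 ± 0.12), the J-domain protein Sec63 (0.11 ± 0.11), the TRAP subunit Ssr4 (0.18 ± 0.09, on a probe set below the chip median) and Spcs1 (0.23 ± 0.13). A second probe set of Ssr4, on chip B, rose by 0.72 ± 0.15.

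The 5 subunits in the set of oligosaccharyltransferase, which moves N-glycans onto entering chains, all rose, by 0.86 to 1.47. Stt3a, the catalytic subunit that works at the translocon, gave 8.40 and 8.51 at e12.5, 8.47 and 8.56 at e13.5, 8.79 and 8.95 at e14.5, 9.58 and 9.69 at e15.5 and 9.81 and 9.65 at e16.5 and rose by 1.47 ± 0.17 (SE; limma adjusted p = 0.00162). Its probe set is of a shared design, and its other 3 probe sets changed by 0.21 to 0.32 without passing. Ddost read 7.27 and 7.26 at e12.5, 7.51 and 7.58 at e13.5, 7.55 and 7.67 at e14.5, 8.20 and 8.14 at e15.5 and 8.47 and 8.49 at e16.5 and rose by 1.22 ± 0.14 (SE; limma adjusted p = 0.00241). Rpn1, which holds substrates for the enzyme, had 8.86 and 8.89 at e12.5, 9.05 and 9.05 at e13.5, 9.10 and 9.25 at e14.5, 9.76 and 9.73 at e15.5 and 9.99 and 9.95 at e16.5 and rose by 1.16 ± 0.14 (SE; limma adjusted p = 0.00305). In these 3 subunits the largest step was that to e15.5. Rpn2 (0.86 ± 0.09, though -0.03 ± 0.08 on a chip C probe set) and Dad1 (1.01 ± 0.19) also rose, and Dad1 had 0.71 (adjusted p = 0.0924) without the e16.5 pool.

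**Figure D4:**
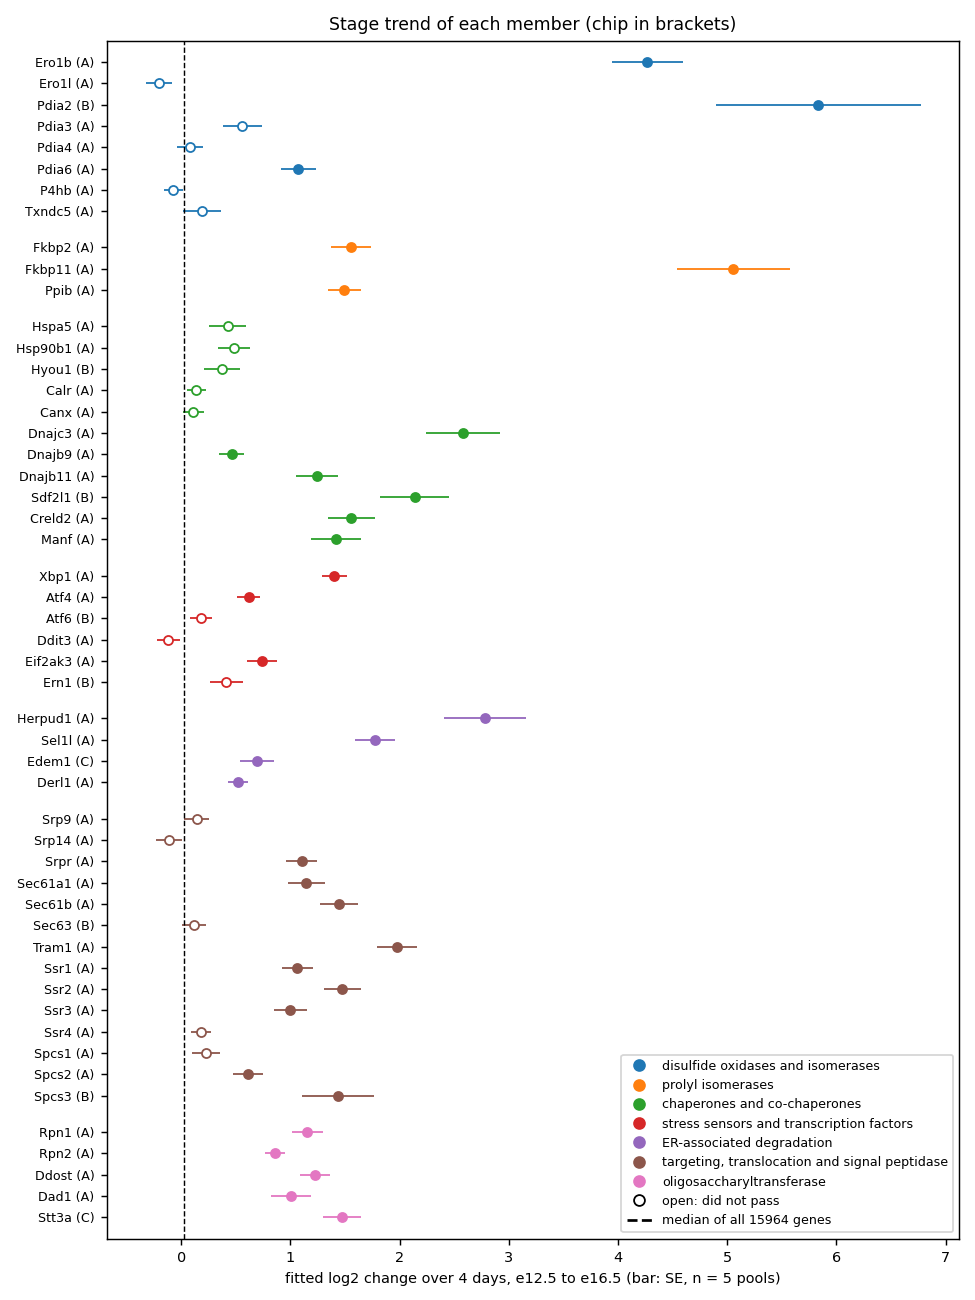
Fitted log2 change over 4 days of each of the 51 genes with its SE (n = 5 pools), grouped and coloured by role, with the chip in brackets; filled points rose, open points did not pass, and the dashed line is the median of all 15964 genes. Ero1l lies farthest to the left, at -0.21, and Pdia2 farthest to the right, at 5.83.

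The daily steps were compared next, asking when the set moved. These comparisons set 1 pool against 1 pool, so their p-values measure labelling spread only. Between e13.5 and e12.5 and between e14.5 and e13.5, no gene of the set was called higher or lower at 2-fold and an adjusted p under 0.05; of all genes 0.125% and 0.150% were called higher. At an adjusted p under 0.05 with no fold minimum, 8 of the 51 were higher at e13.5 than at e12.5, beside 6.93% of all genes, and 1 was lower, beside 7.69%. At e14.5 against e13.5 this gave 16 higher (1.82% of all genes) and none lower. At e15.5 against e14.5 it gave 35 higher (7.10%) and none lower, and at e16.5 against e15.5 27 higher (9.21%) and 2 lower (16.9%). Where none was lower, the share of all genes lower is not given here, and the same holds for lower calls at 2-fold. With a 1.5-fold minimum, 1, 2, 14 and 7 were higher over the 4 steps in order of stage, beside 0.438%, 0.457%, 1.40% and 0.890% of all genes. With the 2-fold minimum, 6 of 51 were called higher at e15.5 than at e14.5, beside 0.470% of all genes: Pdia2 by 2.41 ± 0.07, Fkbp11 by 2.15 ± 0.09, Ero1b by 1.57 ± 0.08, Herpud1 by 1.36 ± 0.06, Dnajc3 by 1.19 ± 0.06 and Spcs3 by 1.06 ± 0.07 (log2 difference ± SE). For e16.5 against e15.5, 3 were called higher, beside 0.313% of all genes: Pdia2 by 3.01 ± 0.07, Fkbp11 by 1.49 ± 0.09 and Ero1b by 1.33 ± 0.08. Averaged over its probe sets on chip A, Dnajc3 differed by 0.79 between e15.5 and e14.5, under 2-fold.

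Over the 51 genes the median step was 0.05 to e13.5, 0.16 to e14.5, 0.39 to e15.5 and 0.22 to e16.5, while the medians of all genes lay between -0.01 and 0.00. Of the 33 genes that rose, 24 had their largest step between e14.5 and e15.5, 5 between e15.5 and e16.5, 3 between e13.5 and e14.5 and 1 between e12.5 and e13.5. The median share of the e12.5 to e16.5 difference that came after e14.5 was 71.3%. In 4 of the 33 it was under 50%: Atf4 with 25.4%, Ssr1 with 33.3%, Xbp1 with 43.6% and Edem1 with 48.0%. It was above 80% in genes of several roles, among them Pdia2 (91.7%), Dad1 (91.0%), Manf (87.6%), Sdf2l1 (86.6%), Herpud1 (83.3%) and Dnajb11 (83.3%). Among the 16 acinar markers that rose the median share was 56.0%, with a range of 16.6% to 98.3%. Of the 33 genes, 31 were highest at e16.5 and 2, Edem1 and Ssr1, at e15.5. Largest steps and shares after e14.5 were not worked out for all genes that rose. Late timing is therefore not shown to be particular to this set.

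The timing depended on the probe set in some genes. In 17 of the 33 genes another probe set rose too, 28 in all, and in 6 of these genes the share after e14.5 lay on the other side of 50% on at least 1 of them. In 4 genes the share was lower there: Spcs3 had 106% on its chosen probe set and 17.1% on the other, Ssr3 79.9% and 18.4%, and Pdia2 91.7% and 26.1%, the last on a probe set below its chip's median throughout. Dnajc3 had 79.4% on its chosen probe set, against 33.3% and 22.5% on its chip B probe sets and 71.0% to 77.8% on those of chip A. In the other 2 genes the share was higher: Edem1 had 78.0% and 76.3% on its others, and Ssr1 72.1% and 77.7% on 2 of its 3 others and 27.4% on the third. Of the 28 probe sets 4 were highest at e15.5, 1 each of Spcs3, Ssr3, Dnajc3 and Fkbp11.

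**Figure D5:**
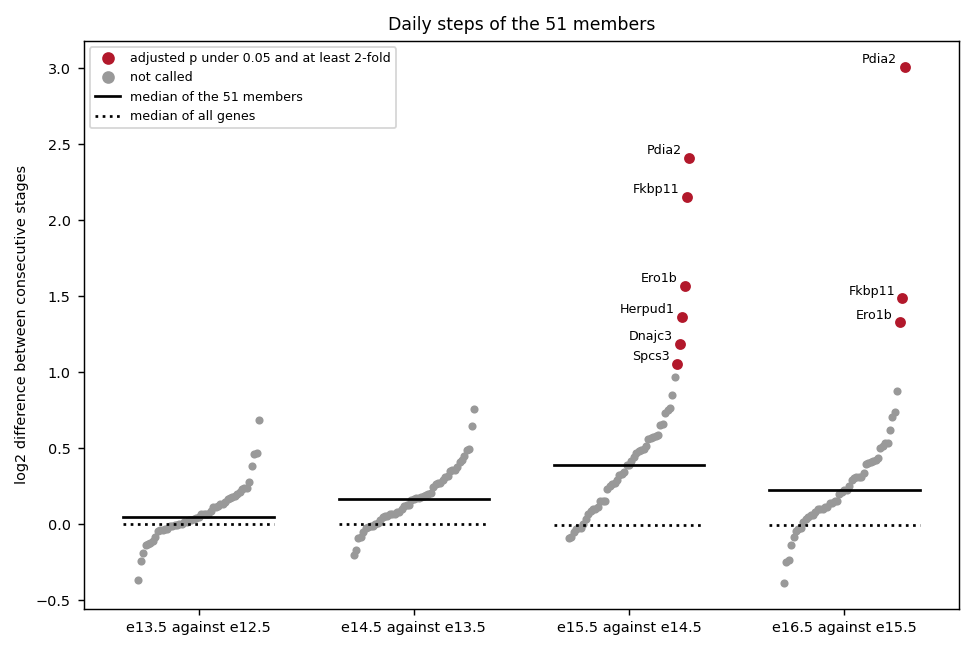
log2 difference between consecutive stages for the 51 genes, ordered within each interval; red points passed an adjusted p under 0.05 and 2-fold, solid lines are medians of the 51 genes (0.05, 0.16, 0.39 and 0.22) and dotted lines those of all genes. Called genes appear only in the last 2 intervals.

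Across the whole window, 21 of the 51 genes were called higher at e16.5 than at e12.5 and none lower, beside 2.20% of all genes called higher, and the median difference was 0.93. The share of all genes called lower at 2-fold is not given here, so the absence of lower calls has no background. The 5 highest values were those of Pdia2 with 5.91 ± 0.07, Fkbp11 with 4.87 ± 0.09, Ero1b with 4.23 ± 0.08, Herpud1 with 2.69 ± 0.06 and Dnajc3 with 2.38 ± 0.06. Sec61a1 stood at the edge, with 1.01 ± 0.07, and fell short of 2-fold with quantile normalization again (0.97) and without 1 reaction of e12.5 (0.97) or of e16.5 (0.95). At an adjusted p under 0.05 with no fold minimum 39 were higher, beside 28.2% of all genes, and 1 was lower, beside 29.4%.

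In a wider list of 66 further ER genes 27 rose (40.9%), 10 fell (15.2%) and 29 did not pass, with a median of 0.32. Among all genes 11.9% rose and 17.0% fell, so the share that fell was near that of all genes. The 6 largest passing changes were those of Nucb2, a calcium-binding protein of the secretory pathway (3.91 ± 0.62), Edem2, which starts the mannose trimming of misfolded glycoproteins (3.22 ± 0.26), the asparagine synthetase gene Asns, a known Atf4 target (2.88 ± 0.35), Serp1, which binds the Sec61 channel (1.77 ± 0.15), Kdelr3, a receptor that returns escaped ER proteins (1.57 ± 0.28), and Sec61a2, a second form of the channel's main subunit, which fell by 1.51 on the log2 scale (SE 0.19, limma adjusted p = 0.00332). Sec61a2 averaged 6.06 at e16.5 and 7.49 at e12.5, while Sec61a1 averaged 10.72 at e16.5 and 9.71 at e12.5, so the paralogues moved in opposite directions. Among the other 9 that fell, named after their values were seen, were the collagen chaperone Serpinh1 (-1.25 ± 0.16), the lysyl hydroxylase Plod1 (-0.41 ± 0.10), the prolyl isomerase Fkbp14 (-0.80 ± 0.14) and the calcium-binding reticulocalbins Rcn1 (-0.82 ± 0.09) and Rcn2 (-1.38 ± 0.17). The part in these falls of the mesenchyme markers, of which 5 of 12 fell, was not tested.

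Set beside the 51 genes, 15 of 35 genes of Golgi and coat traffic rose (42.9%) and 2 fell (5.71%), with a median of 0.35. Of 25 cytosolic chaperones and their co-factors 1 rose (4%) and 12 fell (48%), with a median of -0.46. The shares of all genes were 11.9% and 17.0%. Hspa8, the constitutive cytosolic relative of Hspa5, fell by 1.02 on the log2 scale (SE 0.21, adjusted p = 0.0175), and Hsp90aa1, a cytosolic relative of Hsp90b1, by 1.01 (SE 0.20, adjusted p = 0.0144), both named after their values were seen.

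Read against the promoters shown above, the 8 genes with an ER stress element held 4 that rose, with fitted changes of 4.27, 2.58, 1.56 and 1.07, and 4 that did not pass, with 0.49, 0.43, 0.14 and 0.11. The Calr value rests on the dim probe set. Of all 51 genes 64.7% rose. Among the 12681 genes on the chips with a promoter window, 18 held the element, and 9 of these rose and 1 fell. The 18 include the 8 genes above and 1 gene of the wider ER list, which rose, so they are no separate comparison. Of all 15964 genes 11.9% rose and 17.0% fell.

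Across all 112 probe sets of the 51 genes 66 rose and none fell. The shares over all probe sets of the chips are not given here. The 11.9% and 17.0% of all genes rest on 1 probe set per gene and are no like measure. Of 29 genes with over 1 probe set the chosen one rose in 20; another rose too in 17 of these, and none of the others rose for Ero1b, Eif2ak3 and Stt3a. In 6 of the 20, Edem1, Rpn2, Srpr, Ssr1, Ssr3 and Stt3a, at least 1 other probe set that was above its chip's median at e12.5 or e16.5 did not pass. In 4 genes, Atf6, Ern1, Ero1l and Ssr4, the chosen probe set did not pass while another rose.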

How the data were processed

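RNA of 5 dorsal pancreas pools, 1 per stage, was measured on 30 arrays, 10 for each of the chips A, B and C. The authors deposited log2 values for every probe set on each array; they come from RMA, as the submitters' processing notes say. The log base was inferred from the values, and no software version is stated. In RMA the background is corrected, arrays are brought to common quantiles and the probes of a set are summarised, which removes differences in overall brightness, so changes are relative to the other genes of a chip. Each chip was treated as normalized on its own. Levels were not compared between chips, except in choosing a gene's probe set, which took the highest mean over the chips together. The chips differ in median level, so that choice depends on the chip too. No detection calls came with the values, so a probe set below its chip's median was taken as not shown to be above background. The number of pools, 1 per stage, sets the precision.

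Names came from the platform annotation at GEO, brought up to date by Entrez identifier with RefSeq (GRCm38.p6), the source of the coordinates and promoters. A single symbol was given for 29131 of 36701 probe sets, several for 724 and none here for 6846. The members, the other lists and the tests were chosen with earlier results of these data known, so the lists are no independent evidence.

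Tests used limma 3.58.1 in R 4.3.3. The stage trend is a straight line through the 5 pool means (reactions averaged) against embryonic day, given as slope times 4 days, with Benjamini-Hochberg adjustment over every probe set of all 3 chips and a threshold of 0.05. Stages were compared in a fit with stage as a factor on a chip's 10 arrays, with a call at 2-fold and an adjusted p under 0.05. All 6 sensors and factors, the 3 members of each other role with the largest passing change, and members called in a daily step are given with every array; of the 66 other ER genes, the 6 largest passing changes are named, and further names are said to be chosen after their values were seen. Tested on data simulated for chip A (12422 probe sets, 200 changed in a straight line), the stage trend recovered 85% of 1.5-fold and 100% of 2-fold changes, with 11 false calls, and 1 call with no change simulated. Every simulated probe set had the same pool SD (0.0873) and the same labelling SD (0.0791). Rises that steepen late were not simulated, so the rates can differ for the genes described here. Steps were not simulated. Same-numbered reactions did not deviate together between stages (correlations of -0.176 to 0.110 over the 3 chips, 1 of 30 above 0.1), so the numbers were not taken as pairs. Alternatives were other scalings, a filter to bright probe sets, other variance and adjustment settings, other fold minimums, the mean of a gene's probe sets, the pool or the replicate number as a block, and leaving out arrays, reactions and pools. Python 3.11.15 searched the promoters. No samples were left out.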

Additional observations from a re-analysis of the deposited data

How the results depend on the processing

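The count of rising genes among the 51 stayed between 25 and 38 over 27 alternatives of the stage trend, and none fell in any of them. The count was 25 with a 2-fold minimum, 26 without the e16.5 pool, 30 to 32 without any other pool and 31 to 34 without single arrays or with 1 reaction per pool. The count over all 15964 genes depended more on the pools, with 1902 rising in all, and 754, 1018 and 1143 when the e16.5, e12.5 or e13.5 pool was left out. The replicate numbers do not pair the samples; with the replicate number as a block on the 10 arrays, which counts both reactions of a pool, 38 of the 51 rose (3545 of all genes), the 5 added being Pdia3, Hspa5, Hsp90b1, Hyou1 and Ern1, and no count of a stage comparison changed. With the pool as a random block 36 rose (2680 of all genes), with Pdia3, Hspa5, Hsp90b1 and Ern1 added and Dnajb9 lost (adjusted p = 0.0627). For the stage comparisons, dropping the fold minimum gave 39 higher and 1 lower for e16.5 against e12.5, 8 and 1 for e13.5 against e12.5, 16 higher for e14.5 against e13.5, 35 higher for e15.5 against e14.5, and 27 higher and 2 lower for e16.5 against e15.5; a 1.5-fold minimum gave 1, 2, 14 and 7 higher for the 4 daily steps in order of stage, where 0.438%, 0.457%, 1.40% and 0.890% of all genes were higher. Quantile normalization again brought Hyou1 (0.58) and Ern1 (0.51) past the threshold, and cyclic loess Hyou1 (0.58) and Hsp90b1 (0.68). Dnajb9 also lost its call without the first reactions (0.19) and without 3 single arrays. Signs turned only in genes that did not pass: P4hb to 0.11 with cyclic loess and 0.17 with the mean of its probe sets, and Srp14 to 0.056 with cyclic loess. When arrays, reactions or pools were left out, Ero1l ran between -0.31 and 0.0070, Calr between -0.0052 and 0.28, Ddit3 between -0.24 and 0.0086, Sec63 between -0.074 and 0.30 and Spcs1 between -0.024 and 0.31; the turned signs came without the e16.5 pool for Ero1l, Spcs1 and Sec63 (-0.017), without 1 e16.5 reaction for Calr, and with 1 reaction per pool for Ddit3 and Sec63. The cause of these changes was not tested. Stage comparisons with 1 reaction per pool have no residual degrees of freedom and were not run. Dim probe sets, such as those of Calr, Ssr4, Atf6, Ddit3, Dnajb9 and Eif2ak3, limit what can be said of those genes.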

Other observations

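Within the list of 66 further ER genes, some not described above had these values (fitted log2 change over 4 days ± SE, limma). They were named after their values were seen and stand for no group. Ufm1, a ubiquitin-like protein attached to targets at the ER membrane, rose by 1.35 ± 0.19 (adjusted p = 0.00498), and Ddrgk1 and Cdk5rap3, which take part in that attachment, rose by 0.54 ± 0.11 and 0.61 ± 0.11 (adjusted p = 0.00971 and 0.0115). Of genes with roles in degradation, Derl3 (1.33 ± 0.22), Os9, a lectin that reads trimmed glycans (1.13 ± 0.18), Edem3 (1.06 ± 0.16) and Derl2 (0.70 ± 0.13) rose. Others did not pass: the ubiquitin-conjugating enzymes Ube2j1 (0.37 ± 0.12) and Ube2g2 (0.22 ± 0.16), the mannosidase Man1b1 (-0.23 ± 0.10), the glycan-removing enzyme Ngly1 (-0.25 ± 0.16) and the cytosolic ATPase Vcp, which pulls chains out of the membrane (-0.28 ± 0.10).

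Of genes known to respond to Atf4, also named after their values were seen, Asns averaged 10.73 at e16.5 and 8.25 at e12.5. Chac1 rose by 1.20 ± 0.36 (limma adjusted p = 0.044), with 6.98 at e16.5 and its 4 earlier stages between 5.43 and 5.72. Trib3 (0.23 ± 0.15), Atf3 (-0.25 ± 0.09) and Ppp1r15a (0.08 ± 0.10) did not pass, and neither did Ddit3.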
